A study of Mus musculus with 27 samples.

Results

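Epithelial keratins are described here over 9 warm ischemia times in the mouse kidney. The 5 genes Krt7, Krt8, Krt18, Krt19 and Krt20 were chosen by gene symbol, as the keratins of simple (single-layered) epithelia, from the 19392 genes of the expression table. The table lists 45 genes with a keratin symbol, so that 40 other keratin genes stood beside these 5. RNA-seq was performed on the left kidney of 27 C57BL/6 mice. Every mouse lost its right kidney at surgery, blood flow to the left one was stopped by a clamp for the time that names the group, and the tissue was collected 24 h later (the uIRIx model, unilateral ischemia-reperfusion injury with contralateral resection). The sham group (0 min) carried the same loss of the right kidney without clamping, and the ischemic groups were clamped for 16, 18, 20, 22, 24, 26, 28 or 30 min, with 3 mice in each group. Values are FPKM, the number of sequenced fragments of a gene corrected for the length of its transcript and for the size of the library. RNA came from kidney tissue in which no cell type was sorted, a piece of each left kidney being kept for histology, and in such bulk tissue fewer cells of a type and less RNA per cell cannot be told apart.

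Keratins are the intermediate filament proteins of epithelial cells. A filament is built from pairs of 1 type I and 1 type II chain, so a cell needs a partner of the opposite type to assemble it. Krt7 and Krt8 encode type II chains, and Krt18, Krt19 and Krt20 encode type I chains. Krt8 and Krt18 form the basic filament pair of simple epithelia. Krt7 and Krt19 are typical of ducts, including the collecting duct, and of the urothelium that lines the renal pelvis. Krt20 is known from the intestinal lining and from the surface cells of the urothelium. In the uninjured proximal tubule simple keratins are sparse, and they are known to be induced when tubular epithelium is injured.

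In GRCm38.p6, Krt7 (chr15:101412403-101427806, plus strand), Krt8 (chr15:101996711-102004342, minus strand) and Krt18 (chr15:102028216-102032026, plus strand) lie on chromosome 15. Krt20 (chr11:99428385-99438153, minus strand) and Krt19 (chr11:100140810-100145926, minus strand) lie on chromosome 11. Krt8 and Krt18, although chains of opposite type, are neighbours 23.9 kb apart, whereas 569 kb separate Krt7 from Krt8 and 703 kb separate Krt20 from Krt19. The principal transcripts have 9 exons for Krt7, 9 for Krt8, 7 for Krt18, 6 for Krt19 and 8 for Krt20. The annotation holds a pseudogene of Krt8 (Krt8-ps, chromosome 7) that has no row in the table, and how fragments shared with it were counted is not given in the sources used here.

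The promoter sequences below are shown because Krt8 and Krt20 had nearly the same pattern over the kidneys while Krt7, a chain of the same type as Krt8, had another, and Krt18 is the neighbour and partner of Krt8. Each runs 5′ to 3′ on the strand of its gene, from 250 bases before to 50 bases after the gene's start, and was taken from RefSeq (GRCm38.p6). Capitals mark matches on either strand to TATAAA (the TATA box), GGAATG (a core bound by TEAD factors) or GGGCGG (bound by Sp1); no entry was held for Krt19.
Krt20, chr11:99438104-99438403: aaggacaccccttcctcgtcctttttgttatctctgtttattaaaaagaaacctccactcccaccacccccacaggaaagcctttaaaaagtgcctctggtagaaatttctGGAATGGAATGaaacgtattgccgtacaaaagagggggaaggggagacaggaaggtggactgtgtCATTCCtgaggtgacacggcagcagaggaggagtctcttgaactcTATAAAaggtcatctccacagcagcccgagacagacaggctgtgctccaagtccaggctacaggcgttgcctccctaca
Krt8, chr15:102004293-102004592: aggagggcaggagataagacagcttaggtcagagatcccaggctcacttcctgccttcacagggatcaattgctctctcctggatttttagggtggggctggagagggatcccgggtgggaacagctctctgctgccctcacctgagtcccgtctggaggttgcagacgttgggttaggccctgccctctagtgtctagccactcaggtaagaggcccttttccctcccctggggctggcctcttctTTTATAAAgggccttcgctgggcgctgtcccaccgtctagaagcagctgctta
Krt18, chr15:102027966-102028265: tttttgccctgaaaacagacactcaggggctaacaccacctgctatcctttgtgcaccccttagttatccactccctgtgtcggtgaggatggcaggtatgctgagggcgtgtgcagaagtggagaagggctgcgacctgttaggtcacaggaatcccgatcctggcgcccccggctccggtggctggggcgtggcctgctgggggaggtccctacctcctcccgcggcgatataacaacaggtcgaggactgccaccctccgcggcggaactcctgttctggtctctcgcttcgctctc
Krt7, chr15:101412153-101412452: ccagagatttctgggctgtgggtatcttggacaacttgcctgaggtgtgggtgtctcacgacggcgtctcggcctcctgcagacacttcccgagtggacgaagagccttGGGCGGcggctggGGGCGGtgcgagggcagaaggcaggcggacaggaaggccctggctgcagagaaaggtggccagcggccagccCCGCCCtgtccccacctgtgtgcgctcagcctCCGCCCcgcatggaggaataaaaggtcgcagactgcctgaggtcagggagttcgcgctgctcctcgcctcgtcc

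TATAAA was found in the Krt20 promoter 29 bases before the start (position -29) and in the Krt8 promoter at the start itself, where matches on both strands overlap (positions -3 and -1). These letters occurred in 13.6% of the 32851 RefSeq promoters of the same length. GGAATG was matched 3 times in the Krt20 promoter (positions -139, -134 and -74), the first 2 matches overlapping, and was present in 14.7% of all promoters. GGGCGG was matched 4 times in the Krt7 promoter (positions -141, -128, -56 and -24) and was present in 35.7% of all promoters. Letters of AP-1 (TGANTCA, 7.81% of all promoters) and of STAT factors (TTCNNNGAA, 8.30%) were in none of the 4 windows. A match describes the letters only, and binding of a factor was not measured.

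Summed FPKM ranged from 512453 to 554036 per kidney, and 16498 to 16904 genes had a value above 0. The table gives no fragment counts, so absolute depth is unknown. A relative depth was read from the step between the lowest values of a gene, which stands for 1 fragment. It ran from 0.950 to 1.06, from 16 to 29 genes per kidney. Only steps within a tolerance of 0.2 of the gene's common step were kept, so the value had to lie near 1 and cannot show equal depth. Some kidneys stood apart. The summed FPKM of 4 injured tubule genes (Havcr1, Lcn2, Vcam1 and Sox9) was 16.3, 15.5 and 89.0 in the 3 kidneys labelled 0 min and 724, 1008 and 68.7 in those labelled 16 min, so the kidney labelled 16 min replicate 3 lay below the highest sham kidney (replicate 3). The summed FPKM of 5 urothelial genes that are not keratins (Upk1a, Upk1b, Upk2, Upk3a and Trp63) was 36.7 in 22 min replicate 3 and 33.4 in 30 min replicate 1, against 0.860 to 15.3 in the other 25 kidneys. Calls of the 5 keratins that change without 1 of these kidneys are given both ways. Relations with the urothelial and collecting duct genes were not recomputed without 16 min replicate 3. Calls of other genes are given with all kidneys only. Collecting duct genes were present in all kidneys, whereas the urothelial regulator Trp63 was below 1 FPKM in every kidney.

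Keratin levels rose in 2 steps. The means of Krt8, Krt18 and Krt20 were already raised after 16 min of ischemia, stayed within overlapping ranges from 16 to 26 min, and stepped up again at 28 min. The calls at 16 min, given below, depended on single kidneys, and the step of Krt18 from 26 to 28 min narrowly missed a call. The means of Krt19 were 1.72 to 3.64 times the sham mean from 16 to 26 min, but some of these kidneys lay within the sham range. All kidneys of 28 and 30 min lay above sham in Krt19. Krt7, the most abundant of the 5 in sham kidneys, changed least. The order of response sizes at 30 min was Krt20, Krt19, Krt18, Krt8 and Krt7.

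Krt8 was measured at 53.7, 54.8 and 60.15 FPKM in the 3 sham kidneys. Over the 18 kidneys of 16 to 26 min its lowest level was 76.6, its median 141 and its highest 190.2 FPKM. At 28 min it stood at 359, 324 and 317 FPKM, and at 30 min at 381, 463 and 403 FPKM. No sham kidney reached the lowest kidney of the middle range, and no kidney of the middle range reached those of 28 or 30 min. The sham mean was 56.2 ± 3.46 FPKM (SD, n = 3). The means after ischemia were 129 ± 57.3 (16 min), 159 ± 31.2 (26 min), 333 ± 22.7 (28 min) and 416 ± 42.7 FPKM (30 min). Relative to the sham mean, these means were 2.29, 2.83, 5.93 and 7.39 times as high. The kidneys of 28 and 30 min did not overlap either, with 359 FPKM as the highest at 28 min and 381 as the lowest at 30 min.

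Krt18, the type I partner of Krt8, was measured at 13.95, 13.8 and 20.5 FPKM in sham kidneys. From 16 to 26 min its lowest, median and highest levels were 16.3, 44.7 and 70.5 FPKM, and without the 16 min group the lowest was 34.0 FPKM. At 28 min the kidneys stood at 107, 104 and 102 FPKM and at 30 min at 174, 124 and 115 FPKM. Only the kidney labelled 16 min replicate 3, at 16.3 FPKM, fell into the sham range, while the other kidneys of that group were at 53.5 and 66.7 FPKM. Group means were 16.1 ± 3.85 FPKM (SD, n = 3) in sham, 45.5 ± 26.1 (16 min), 104 ± 2.78 (28 min) and 138 ± 32.0 FPKM (30 min).

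No change was detected in the level of Krt18 relative to that of its partner Krt8. The mean log2 ratio of Krt18 to Krt8 was -1.83 in sham, -1.62 from 16 to 26 min and -1.64 at 28 and 30 min. The middle groups differed from sham by 0.21 (two-sided exact permutation test over kidneys, p = 0.205) and the late groups from the middle groups by -0.03 (p = 0.836 by the same exact test). The ranges overlapped in both comparisons. These tests had 1330 and 134596 possible arrangements, and a p above the threshold does not show that the ratio is the same.

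Krt20 showed the widest range of the 5 genes. Its level was 0.23, 0.32 and 1.11 FPKM in sham kidneys. From 16 to 26 min the lowest, median and highest levels were 1.97, 11.3 and 21.4 FPKM. At 28 min the kidneys reached 107, 70.2 and 65.7 FPKM, and at 30 min 106.5, 231 and 150.3 FPKM. The sham kidneys, the middle kidneys and those of 28 min did not overlap, whereas 28 and 30 min overlapped by a margin of 106.7 against 106.5 FPKM. Group means went from 0.553 ± 0.484 FPKM (SD, n = 3) in sham to 7.38 ± 6.86 (16 min), 15.7 ± 3.88 (26 min), 80.9 ± 22.5 (28 min) and 163 ± 63.1 FPKM (30 min). The ratio of the 30 min mean to the sham mean was 294, and it rests on sham levels near the lower end of the scale.

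Krt19 was spread widely among kidneys of the same ischemia time. Sham kidneys held 2.45, 3.91 and 9.85 FPKM. The levels from 16 to 26 min ran from 2.56 to 30.1 FPKM with a median of 13.7, and the kidneys labelled 16 min alone held 25.6, 27.03 and 2.56 FPKM. At 28 min the levels were 40.8, 28.6 and 30.65 FPKM, and at 30 min 101, 66.3 and 55.95 FPKM. The middle range therefore overlapped both the sham kidneys and those of 28 min, while no kidney of 28 min reached the lowest of 30 min. In order of their means, 0, 24, 26, 18, 22, 16 and 20 min (5.40 to 19.7 FPKM) each overlapped with the next, and only 28 min (33.3 ± 6.53, SD, n = 3) and 30 min (74.5 ± 23.8) stood clear of the group below.

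Krt7 began high and moved little. Sham kidneys were at 82.6, 66.6 and 90.4 FPKM, more than the other 4 keratins at that time. The 18 kidneys of 16 to 26 min had a lowest level of 86.1, a median of 117 and a highest level of 145 FPKM. At 28 min it was measured at 130.05, 138 and 141 FPKM, and at 30 min at 179.7, 155 and 153 FPKM. The kidneys of 30 min lay above all others, while the sham range and the middle range overlapped. The mean at 30 min, 163 ± 14.9 FPKM (SD, n = 3), was 2.03 times the sham mean of 79.9 ± 12.1.

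**Figure D1:**
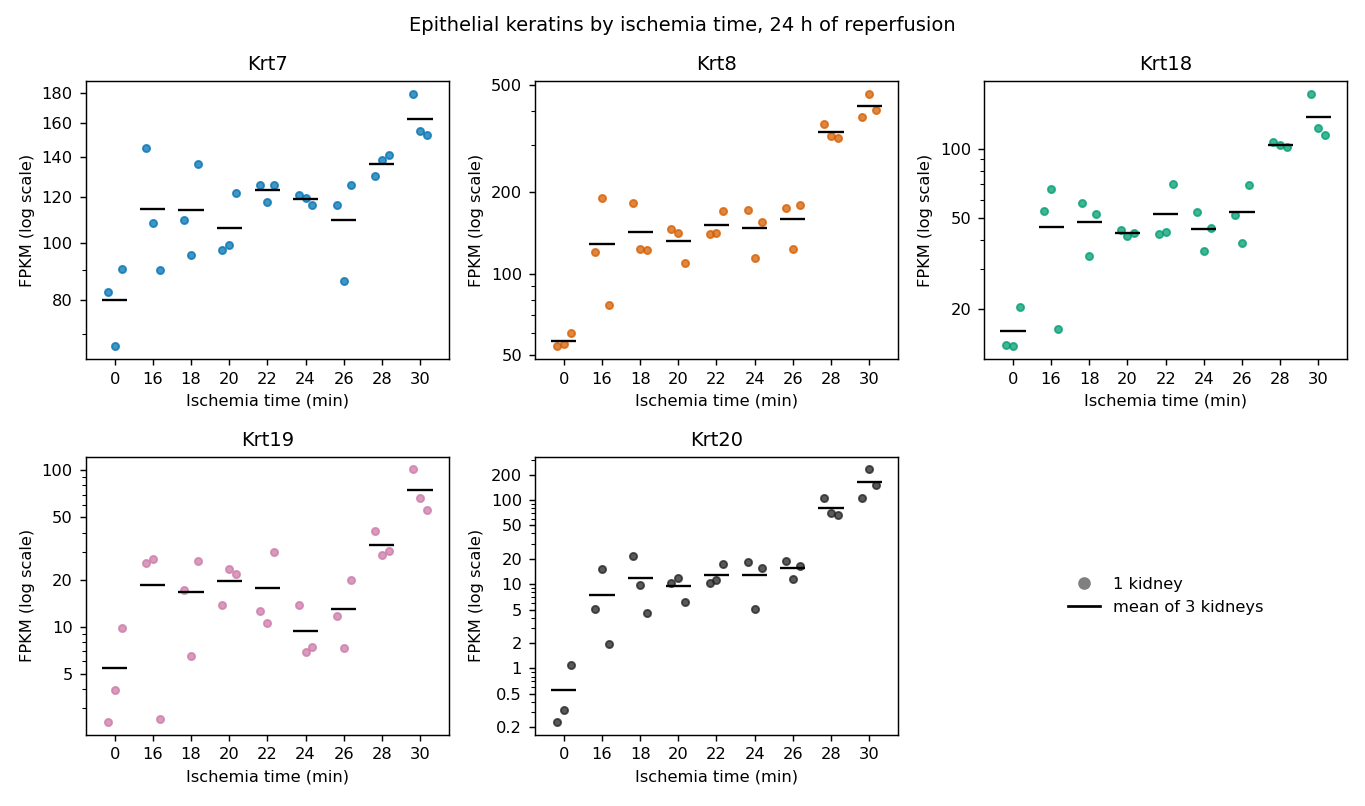
FPKM (log scale, a separate scale in each panel) of each keratin by ischemia time in minutes. Each point is 1 kidney and each line the mean of 3 kidneys. Krt8, Krt18 and Krt20 form a low sham set, a middle set from 16 to 26 min and a high set at 28 and 30 min. The exception is Krt18 in the kidney labelled 16 min replicate 3, which lay within the sham range at 16.3 FPKM. Krt20 goes from at most 1.11 FPKM in sham to at least 65.7 FPKM at 28 and 30 min.

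The groups were compared with limma on quantile normalized log2(FPKM + 1), a scale that understates changes of low genes such as Krt20. A gene was called when its log2 fold change was beyond 1 and its Benjamini-Hochberg adjusted p, over the 18188 genes tested, was under 0.05. All 5 keratins had values in every kidney and were tested. The comparisons against sham share the same 3 sham kidneys and are not independent of each other.

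At 16 min, 3 of the 5 keratins were called higher, against 1.28% of all genes tested. Krt20 rose by 2.05 on the log2 scale (SE 0.55, limma adjusted p = 0.0127), Krt18 by 1.16 (SE 0.35, adjusted p = 0.0266) and Krt8 by 1.05 (SE 0.24, adjusted p = 0.00427). Krt19 (1.18, SE 0.64, adjusted p = 0.219) was not called, and Krt7 (0.45, SE 0.15, adjusted p = 0.0462) stayed under the fold threshold. These calls depended on single kidneys and on the pooled spread. Without the kidney labelled 16 min replicate 3, 4 keratins were called, with Krt19 at 2.14 (adjusted p = 0.00598) and Krt20 at 2.61. Without 16 min replicate 2 none was called, and without 0 min replicate 2 only Krt8 was. Krt18 alone lost its call without 0 min replicate 1 (1.08) and without 16 min replicate 1 (0.94). None was called when only the 6 kidneys of these 2 groups were fitted, where Krt8 kept its log2 fold change of 1.05 with an adjusted p of 0.166.

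From 18 to 26 min the same 3 genes, Krt8, Krt18 and Krt20, were called higher than sham at each time. The share of all genes called higher was 1.97% (18 min), 1.55% (20 min), 2.09% (22 min), 1.97% (24 min) and 2.16% (26 min). Over these 5 times the log2 fold change ran from 1.12 to 1.41 for Krt8, from 1.27 to 1.55 for Krt18 and from 2.68 to 3.34 for Krt20. Krt19 lay between 0.67 (24 min, adjusted p = 0.483) and 1.73 (20 min, adjusted p = 0.0572) and was not called, and Krt7 lay between 0.33 and 0.55. Leaving out the sham kidney with raised injury genes (replicate 3) brought Krt19 to a call at 20 min (2.18, adjusted p = 0.0341) and at 22 min (1.92, adjusted p = 0.0495). Krt18 lost its call at 20 min without 0 min replicate 2 (1.19, adjusted p = 0.0538).

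Taking the 6 groups of 16 to 26 min as 1 mean against sham, Krt20 (2.82, SE 0.42), Krt18 (1.36, SE 0.27) and Krt8 (1.23, SE 0.18) were called, as were 1.8% of all genes in this direction. Krt19 missed the threshold by a small margin (1.24, SE 0.49, limma adjusted p = 0.0511). It passed without the kidney labelled 16 min replicate 3 (1.40, adjusted p = 0.00488) and without the sham replicate 3 (1.69, adjusted p = 0.0286), and in 3 further fits without 1 kidney each (18 min replicate 2, 22 min replicate 2 or 26 min replicate 2, adjusted p from 0.0317 to 0.0474). Krt7 had an adjusted p of 0.00605 at a log2 fold change of 0.43.

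Within 16 to 26 min no keratin showed a called change with time. In a fit of a slope over these 18 kidneys, Krt20 gained 0.11 per minute on the log2 scale (SE 0.05, unadjusted p = 0.0362, limma adjusted p = 0.541), and the share of all genes with a called rising slope was 0.011%. For 26 against 16 min, 0 of the 5 keratins and 0% of all genes were called by limma, while 1717 genes, Krt20 among them (1.29, unadjusted p = 0.0284), had an unadjusted p under 0.05. The log2 differences of the other keratins were 0.39 for Krt18, 0.36 for Krt8, -0.06 for Krt7 and -0.12 for Krt19.

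At 28 min, 4 keratins were called higher than sham, where 4.27% of all genes were. Krt20 had a log2 fold change of 5.65 (SE 0.55, limma adjusted p = 9.0e-08) and ranked 4th of all genes tested. Krt18 (2.54), Krt8 (2.46) and Krt19 (2.43, adjusted p = 0.00359) followed, and Krt7 (0.76, adjusted p = 3.8e-04) did not reach the fold threshold. Set directly against 26 min, Krt20 was 2.30 higher (SE 0.55, adjusted p = 0.00586) and Krt8 1.05 higher (SE 0.24, adjusted p = 0.00387), and both were called, as were 0.44% of all genes. Krt18 missed both thresholds narrowly (0.997, adjusted p = 0.0523), and Krt19 (1.37, adjusted p = 0.150) and Krt7 (0.36, adjusted p = 0.106) were not called. Without 26 min replicate 2 only Krt20 was called, Krt8 then being at 0.89, and without 26 min replicate 3 Krt18 was called as well (1.21, adjusted p = 0.0362).

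At 30 min all 5 keratins were called higher than sham, where 5.14% of all genes were. Log2 fold changes were 6.71 for Krt20 (SE 0.55, limma adjusted p = 4.6e-09), 3.62 for Krt19 (SE 0.64, adjusted p = 7.3e-05), 3.04 for Krt18 (SE 0.35, adjusted p = 4.6e-07), 2.82 for Krt8 (SE 0.24, adjusted p = 6.5e-09) and 1.11 for Krt7 (SE 0.15, adjusted p = 4.4e-06). Krt20 ranked 3rd of all genes by log2 fold change. The call of Krt7 was lost without 0 min replicate 2, at 0.99. Between 28 and 30 min, 0 of the 5 keratins were called by limma, where 0.401% of all genes were called higher, and the log2 differences were 1.197 for Krt19 (adjusted p = 0.243), 1.06 for Krt20 (adjusted p = 0.223), 0.49 for Krt18, 0.36 for Krt8 and 0.35 for Krt7. Of these 5 only Krt7 had an unadjusted p under 0.05 (0.0332).

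The 28 and 30 min groups were also set against the mean of 16 to 26 min, a comparison without the sham kidneys. These bands were chosen with earlier results of these data known, so the p-values do not test where the step lies. Krt20 (3.36, SE 0.32, limma adjusted p = 2.3e-08), Krt19 (1.78, SE 0.37, adjusted p = 3.5e-04), Krt18 (1.43, SE 0.20, adjusted p = 5.4e-06) and Krt8 (1.41, SE 0.14, adjusted p = 3.3e-08) were called, as were 1.27% of all genes in this direction. Krt7 rose by 0.50 (SE 0.09, adjusted p = 7.4e-05), under the fold threshold. Krt20 had the second largest log2 fold change of all genes tested in this comparison and in 28 against 26 min. The same 4 keratins were called without any 1 of the kidneys, the log2 fold change of Krt20 running from 3.22 to 3.51.

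**Figure D2:**
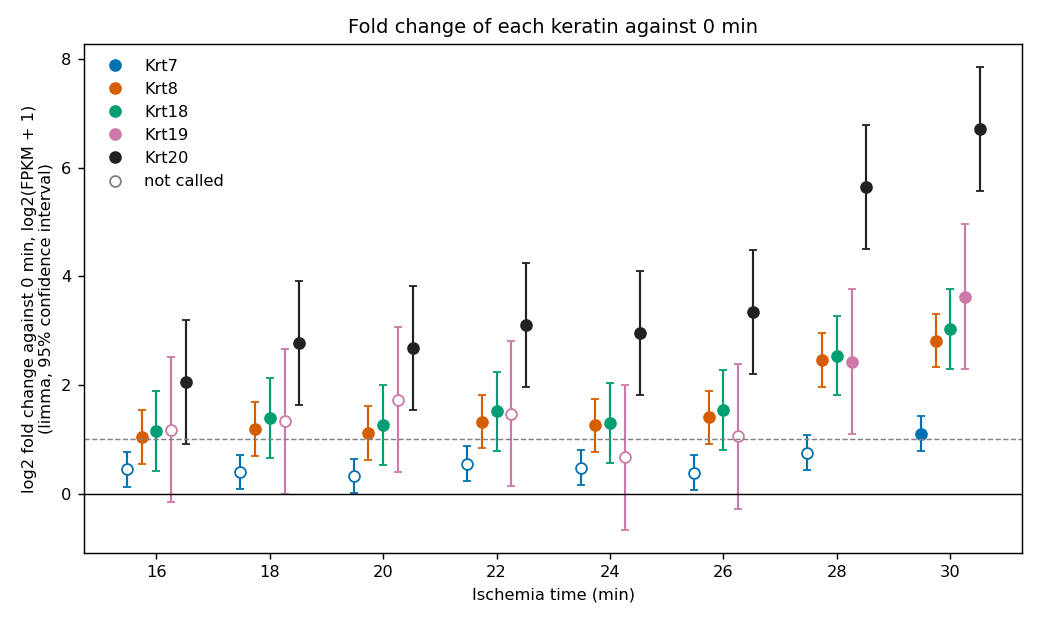
Log2 fold change of each keratin against 0 min on the log2(FPKM + 1) scale, by ischemia time in minutes, with 95% confidence intervals from limma. Filled points were called and open points were not; the dashed line marks a log2 fold change of 1, and Krt20 moves from 2.05 at 16 min to 6.71 at 30 min while Krt7 passes 1 only at 30 min, at 1.11.

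The make-up of the keratin transcripts changed with the total. The summed FPKM of the 5 genes was 158 ± 21.8 (SD, n = 3) in sham, 310 to 356 as group means from 16 to 26 min, 688 ± 48.5 at 28 min and 953 ± 81.9 at 30 min. As a share of all FPKM this was 0.0294% in sham and 0.177% at 30 min. Krt7 held 50.5% ± 3.19 of the sum in sham and 17.1% ± 2.09 at 30 min, while Krt20 went from 0.330% ± 0.246 to 16.9% ± 5.46. Krt8 held 35.8% ± 3.18 in sham, 48.4% ± 0.236 at 28 min and 43.6% ± 2.89 at 30 min, and from 16 min onward its mean share was the largest of the 5.

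Type I chains gained on type II chains. The mean log2 ratio of summed type I (Krt18, Krt19 and Krt20) to summed type II members (Krt7 and Krt8) was -2.68 in sham, -1.85 from 16 to 26 min and -0.87 at 28 and 30 min. In linear terms type I reached 0.156 of type II in sham and 0.645 at 30 min. The middle groups exceeded sham by 0.83 (two-sided exact permutation test, p = 0.00526), with overlapping ranges. The 6 kidneys of 28 and 30 min exceeded the 18 middle kidneys by 0.98 without overlap (p = 7.4e-06 by the same exact test, the smallest it can give). The boundary between these bands was chosen with earlier results of these data known. For 30 min against sham the difference was 2.05 with an exact p of 0.1, the smallest that 3 against 3 kidneys allow.

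**Figure D3:**
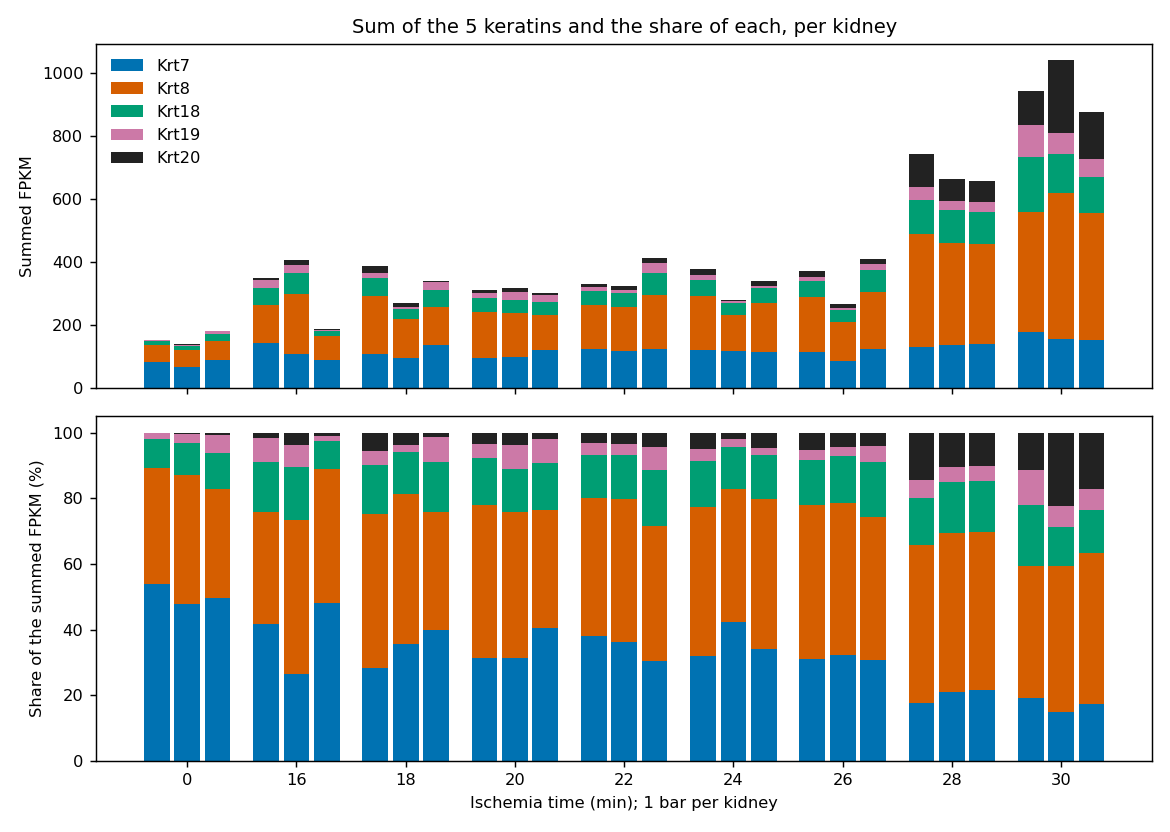
Summed FPKM of the 5 keratins (top) and the share of each in that sum in percent (bottom), with 1 bar per kidney and ischemia time in minutes on the horizontal axis. Krt7 falls from 50.5% of the sum in sham to 17.1% at 30 min as Krt20 grows from 0.330% to 16.9%, and the kidney labelled 16 min replicate 3 has a sum of 187 FPKM, close to the highest sham kidney at 182 FPKM.

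Kidneys of the same ischemia time also varied together in some of the 5 genes. After subtraction of each group's mean, Krt8 and Krt20 had a Pearson correlation of 0.91 over 27 kidneys, which stayed between 0.88 and 0.93 when any 1 kidney was left out. Krt18 and Krt19 had 0.92, and 0.85 without the kidney labelled 16 min replicate 3. Krt8 had 0.77 with its partner Krt18 and 0.62 with Krt19, and Krt20 had 0.59 with Krt18 and 0.45 with Krt19. Without the kidney labelled 16 min replicate 3 these 4 values were 0.62, 0.37, 0.41 and 0.22. Krt7 had 0.70 with Krt19 and 0.63 with Krt18 (0.63 and 0.52 without that kidney), against 0.18 with Krt8 and -0.03 with Krt20 (-0.08 and -0.28 without it). The kidneys share 1 quantile normalization, and these values are a description.

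The 3 genes nearest to each keratin in the pattern over all 27 kidneys were taken from 12345 genes with a mean of at least 1 FPKM. For Krt8 these were Slc25a24, Krt20 and Cd151 (r of 0.99 for each, and 0.95, 0.91 and 0.93 within groups). For Krt20 they were Krt8, Slc25a24 and Cnih4, with r from 0.98 to 0.99. Krt18 was nearest to Chrnb1, Litaf and Plpp2 (r of 0.98 for each). For Krt19 they were Msln, Krt5 and Krt18 (r of 0.92 for each, and 0.91, 0.89 and 0.92 within groups), and for Krt7 Mal2 (0.96), Itga3 (0.92) and Hspa1b (0.92), a heat shock gene with a near-identical copy with which fragments may be shared.

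Urothelial and collecting duct genes moved with some of the keratins among kidneys of 1 group. A urothelial score, the mean log2(FPKM + 1) of Upk1a, Upk1b, Upk2, Upk3a and Trp63, was related to each keratin after subtraction of group means, with values permuted within groups (16 relations in all, Benjamini-Hochberg adjusted). Krt19 followed the score (Pearson r = 0.69, permutation p = 3e-05, adjusted p = 2.1e-04 over 27 kidneys; Spearman rho = 0.83, permutation p = 3e-05), with r = 0.75 without the 2 kidneys farthest from the median score. So did Krt18 (r = 0.65, permutation p = 0.0012, adjusted p = 0.00445; rho = 0.81, permutation p = 5e-04; r = 0.63 without those kidneys) and Krt7 (r = 0.55, permutation p = 0.0014, adjusted p = 0.00445; rho = 0.64, permutation p = 0.0024; r = 0.68 without them). No relation was detected for Krt8 (r = 0.21, permutation p = 0.3; rho = 0.28, permutation p = 0.24; r = 0.35 without them) or Krt20 (r = 0.05, permutation p = 0.82; rho = 0.11, permutation p = 0.64; r = 0.18 without them). The kidney labelled 16 min replicate 3 was kept in all of these relations.

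Krt7 also followed the mean of 8 collecting duct genes (r = 0.69, permutation p = 0.0077, adjusted p = 0.0175; rho = 0.69, permutation p = 0.0039; r = 0.52 without the 2 farthest kidneys, 16 min replicate 1 and 20 min replicate 3). For the other 4 keratins the adjusted p of that relation was at least 0.410 by permutation.

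No gene of the urothelial score or of the collecting duct list was called higher with ischemia time. The keratins of the urothelial list, which the score leaves out, were called higher than sham, Krt15 at 20 min and Krt5 at 28 and 30 min. Of the 5 urothelial genes that are not keratins 0 were called by limma in any comparison, 1 of them had an unadjusted p under 0.05 at 28 and at 30 min, and their summed FPKM ran from 3.36 to 4.33 in sham, from 0.860 to 36.7 at 16 to 26 min and from 2.48 to 33.4 at 28 and 30 min. Of the 8 collecting duct genes 0 were called higher in any comparison against sham, and 3 (Aqp3, Aqp4 and Avpr2) were called lower at 28 min and 1 (Avpr2) at 30 min, where 4.21% and 5.59% of all genes were. With the urothelial score as a covariate the same 4 keratins were called at 28 min and all 5 at 30 min, whereas Krt18 at 20 min fell to 0.93 and was no longer called. This covariate was chosen after seeing the data and rests on 5 genes of low level, so the fit does not measure the urothelial part of the keratin levels. The summed FPKM of 4 injured tubule genes was 15.5 to 89.0 in sham, 68.7 to 1201 at 16 to 26 min and 2074 to 4768 at 28 and 30 min. Over the same 3 sets of kidneys the sum of 8 proximal tubule genes was 6296 to 7046, 4122 to 8008 and 1756 to 2875 FPKM. Of 4 thick ascending limb genes, 3 (Slc12a1, Umod and Kcnj1) were called lower at 28 and at 30 min, and Slc12a1 also at 26 min. The summed FPKM of these 4 genes was 1681 to 1841 in sham, 858 to 2630 at 16 to 26 min and 554 to 817 at 28 min. At 30 min it was 536, 529 and 2254, so that replicate 3 lay above every sham kidney. Among 6 leukocyte genes, Cd68 was called higher at all 8 ischemia times (log2 fold changes of 1.96 to 2.63). S100a8 and S100a9 were called higher in 28 against 26 min (1.29 and 1.05) and at 30 min. In the other direction, Csf1r was called lower at 26, 28 and 30 min, with 13.7 to 18.3 FPKM in sham and 5.1 to 7.0 at 28 and 30 min. The median log2 fold change of the leukocyte list ran from -0.40 to -0.13 at 16 to 26 min. Its summed FPKM was 25.8 to 28.4, 27.3 to 51.3 and 38.4 to 58.0 over the 3 sets. The sum of 4 endothelial genes was 56.8 to 68.8 FPKM in sham and 79.2 to 123 at 30 min, with 0 of the 4 called by limma and 3 at an unadjusted p under 0.05 at 30 min. The part of these cell types in the keratin levels was not tested.

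**Figure D4:**
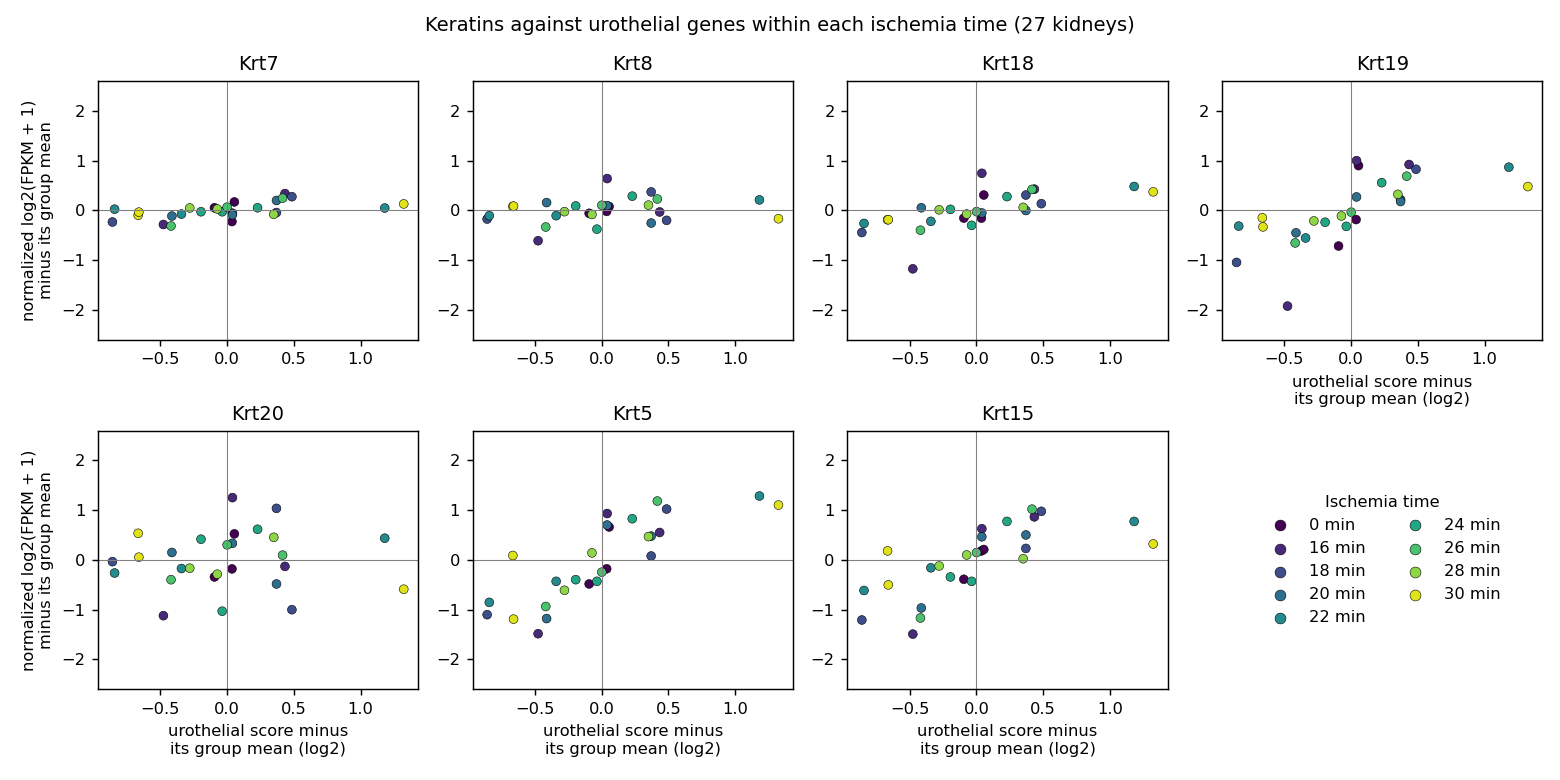
Normalized log2(FPKM + 1) of each keratin, and of Krt5 and Krt15 from the urothelial list, against the urothelial score, each after subtraction of the mean of its ischemia time. Each point is 1 of 27 kidneys, coloured by ischemia time; Krt19 (r = 0.69) and Krt5 (r = 0.82) rise along the score, whereas Krt8 (r = 0.21) and Krt20 (r = 0.05) show no detectable relation.

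Of the 40 other keratin genes, 2 were at 0 in every kidney, 31 passed the filter and only 7 reached a mean of 1 FPKM in any group. Of the 31 tested, 2 were called higher than sham at 28 min and 4 at 30 min, where 4.27% and 5.14% of all genes were. Krt5 and Krt14, the partner chains of basal cells in stratified epithelia, were called higher than sham at 28 min (log2 fold changes of 1.95 and 1.79) and 30 min (2.80 and 2.88, limma adjusted p = 0.00444 and 2.7e-04). Krt5 rose from 0.653 ± 0.671 FPKM (SD, n = 3) in sham to 13.2 ± 10.03 at 30 min, where its kidneys spread from 4.30 to 24.05 FPKM, and Krt14 from 0.363 ± 0.390 to 10.4 ± 5.46. Krt4 (0.213 to 3.19 FPKM as means) and Krt23 (1.18 to 4.26) were called higher at 30 min, by 1.76 (adjusted p = 4.9e-05) and 1.15 (adjusted p = 1.6e-04). Krt15 was called at 20 min alone (2.03, adjusted p = 0.0279), whereas Krt10 and Krt80 were called at no time. Krt5, Krt14 and Krt15 also followed the urothelial score within groups (r = 0.82, 0.68 and 0.71, adjusted permutation p = 2.1e-04, 0.00525 and 2.1e-04; rho = 0.87, 0.75 and 0.85, permutation p = 4e-05, 6.1e-04 and 4e-05; r = 0.81, 0.72 and 0.87 without the 2 farthest kidneys). At 30 min Krt5, the most abundant of these 7, was below the lowest member of the 5 simple keratins, Krt19, whose mean was 74.5 FPKM.

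**Figure D5:**
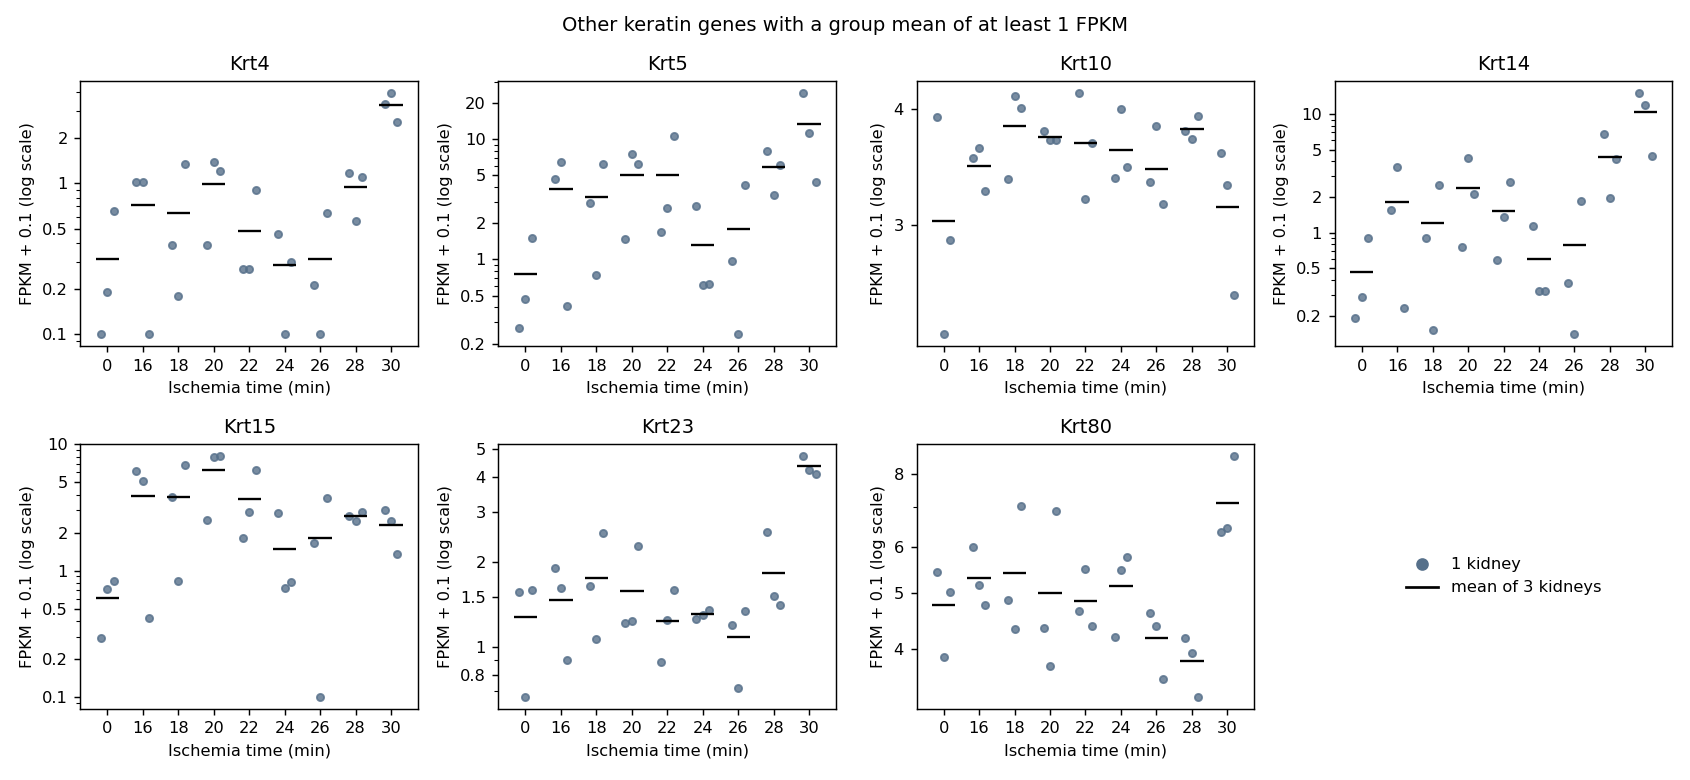
FPKM + 0.1 (log scale, a separate scale in each panel) by ischemia time in minutes for the 7 other keratin genes that reached a mean of 1 FPKM in a group. Each point is 1 kidney and each line the mean of 3 kidneys; Krt5 and Krt14 are highest at 30 min (means of 13.2 and 10.4 FPKM), Krt15 peaks at 20 min (6.13 FPKM) and Krt10 stays between means of 2.93 and 3.73 FPKM.

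Genes that join keratin filaments to cell junctions were described beside the keratins. Of 15 desmosome and keratin linker genes, 0 were called against sham by limma from 16 to 26 min. At each of these times 5 to 7 had an unadjusted limma p under 0.05, of which 3 to 5 were higher and the rest lower. At 28 min 11 genes had such a p, 8 of them higher, and at 30 min 13, 10 of them higher. Called higher at 28 and at 30 min were 2, namely Plec (plectin, a filament linker, 1.28 and 1.57) and Ppl (periplakin, 1.24 and 2.40). All genes called higher made up 1.28% to 2.16% from 16 to 26 min, 4.27% at 28 min and 5.14% at 30 min. The median log2 fold change of the list was 0.03 at 16 min and 0.52 at 30 min, where the median over all genes was 0.00. Ppl went from 1.93 ± 0.429 FPKM (SD, n = 3) in sham to 6.89 ± 2.70 at 28 min and 16.0 ± 3.92 at 30 min, and was the only gene of the list called between 28 and 30 min (1.16, adjusted p = 0.0120). Plec was already 0.86 higher than sham at 16 min (limma adjusted p = 5.2e-04), under the fold threshold.

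Among 15 intermediate filament genes that are not keratins, 9 stayed below 1 FPKM in every kidney. Vim (vimentin, the filament of mesenchymal cells) was called higher at all 8 ischemia times, with log2 fold changes of 1.74 at 16 min and 2.86 at 30 min, and with 14.4 to 18.1 FPKM in sham, 33.3 to 79.5 at 16 to 26 min and 80.2 to 159 at 28 and 30 min. Lmnb1 (lamin B1) was called from 16 to 28 min but not at 30 min (0.98). Lmna (lamin A and C) was called at 28 and 30 min (1.46 and 1.56), Des (desmin) at 24 and 30 min and Nes (nestin) at 30 min. Of the 15 genes, 2 or 3 were called higher at each time from 16 to 26 min, 3 at 28 min and 4 at 30 min. The share of all genes called higher was 1.28% to 2.16%, 4.27% and 5.14% at these times. No gene of this list was called lower in any comparison, where 4.21% of all genes were at 28 min and 5.59% at 30 min. The 9 genes below 1 FPKM had little room to fall on the log2(FPKM + 1) scale. The median log2 fold change of the list at 30 min was 0.22.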

How the data were processed

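RNA was extracted from the left kidney of each mouse, and libraries were prepared and sequenced by the DNBSEQ-G400 protocol per the labels. The submitters' processing notes name Bowtie2, RSEM and DESeq2, without versions, and the build GRCm38.p6. The authors deposited 1 table of FPKM values with 2 decimals for all 27 kidneys, with no counts, so no count test was run and no counting interval can be given. No other column was present, and 0 pairs of kidneys held identical values.

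Groups were taken from the sample labels. Each mouse is 1 replicate, and p-values measure the spread between mice. Genes above 0 FPKM in at least 3 kidneys (18188 of 19392) were tested with limma 3.58.1 in R 4.3.3 on log2(FPKM + 1), quantile normalized over the 27 kidneys, with 1 mean per ischemia time and a single estimate of the spread, after the study's stated use of limma and quantile normalization. Ratios and relations used permutation tests over kidneys (scipy 1.17.1; exact, or 100000 resamples within groups). The limma step was tested on simulated data. The 5 keratins, the gene lists and the naming rule were chosen with earlier results of these data known. The naming rule took the 5 keratins, any other keratin with a group mean of at least 1 FPKM or called in a comparison, at most 6 genes of each filament list by number of calls, and the 3 genes nearest in pattern to each keratin. Alternatives were the pseudocount, the filter, the scaling, the samples fitted, a trended prior, a replicate block and leaving out each kidney. Pairing by replicate number was not seen, as correlations of same-numbered deviations ran from -0.42 to 0.47 and those of different numbers from -0.52 to 0.52. Promoters were searched in the RefSeq table, which held an entry for 4 of the 5 keratins. Gene structures are from GENCODE.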

Additional observations from a re-analysis of the deposited data

How the results depend on the processing

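For the fold changes of the 5 keratins over 14 comparisons, 1288 of 1340 recomputed values kept their direction and side of the thresholds, 22 passed them anew, 14 no longer passed and 16 changed direction. Between 16 and 0 min the number of keratins called was 0 when only those groups were fitted and ran from 0 to 4 when 1 kidney was left out; between 28 and 26 min it ran from 1 to 3. Direction changes were limited to differences that were not called. For 26 against 16 min, Krt7 was 0.00675 and Krt19 0.21 with the urothelial score as a covariate, and Krt18 was -0.19 with 3 kidneys left out together (16 min replicate 3, 22 min replicate 3 and 30 min replicate 1). Leaving out 1 kidney gave ranges of -0.20 to 0.11 for Krt7, -0.19 to 0.76 for Krt18 and -1.08 to 0.38 for Krt19. The slope within 16 to 26 min was 0.015 for Krt19 with the covariate, and -0.00545 for Krt7 and -0.010 for Krt18 without the 3 kidneys, with leave-one-out ranges of -0.0048 to 0.013 for Krt7 and -0.0079 to 0.047 for Krt18. The Krt18 to Krt8 ratio at 28 and 30 against 16 to 26 min was 0.029 from quantile normalized values and -0.13 to 0.026 when 1 kidney was left out, and at 30 against 0 min -0.026 to 0.36. The cause of these changes was not tested. The covariate and the joint removal of 3 kidneys were chosen after seeing the data. Krt19 at 20 min passed without quantile normalization (1.83), after rescaling to a constant sum (1.92), with a filter of 1 FPKM (1.73) and without the 3 kidneys (1.73, limma adjusted p = 0.00890). Its mean of 16 to 26 min passed under these settings and with a pseudocount of 0.1 FPKM or a trended prior. Without the 3 kidneys Krt19 also passed at 16 min (2.14, limma adjusted p = 0.00425), at 18 min (1.33, adjusted p = 0.0317) and in 28 against 26 min (1.37, adjusted p = 0.0363).

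A replicate block changed no call of the 5 keratins (70 fold changes and 14 counts). No pairing by replicate number was seen. Of the same-number correlations 26 of 108 exceeded 0.1, against 53 of 216 between different numbers, and 6 of 27 kidneys correlated best with their own number. These counts cannot show that no pairing or batch existed. With a pseudocount of 0.1 FPKM in place of 1, genes called over the whole table were 3276 against 1950 at 30 min and 795 against 410 at 16 min; fitting only the groups compared left 8 at 16 min, and rescaling to a constant sum called 404 higher and 170 lower there against 232 and 178. Low sham levels of Krt20 limit the precision of its fold change, and with 3 kidneys per group a single kidney can decide a call at 16 min.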

Other observations

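The mesothelial list held Msln, the gene nearest in pattern to Krt19. Msln (mesothelin) was called higher than sham at 28 min (1.08, limma adjusted p = 0.0399) and at 30 min (2.33, adjusted p = 9.6e-05), and was 1.12 higher at 20 min (adjusted p = 0.0621), the time at which Krt19 and Krt15 were also highest within 16 to 26 min. Of the other 4 genes of the list, Upk3b was not called in any comparison (0.92 to 1.46 FPKM in sham, 0.06 to 5.46 at 16 to 26 min and 0.50 to 3.72 at 28 and 30 min). Lrrn4 and Rspo1 were below 1 FPKM in every kidney. Gpm6a was called lower at 28 and 30 min, with 37.9 to 47.8 FPKM in sham and 6.88 to 15.6 at 28 and 30 min.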
